A study of Mus musculus with 19 samples.

Results

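Cytidine (C) sites that lie in genes of long noncoding RNAs (lncRNAs) were followed here in cultured mouse neural progenitor cells with and without Mettl8. A site belonged to the set if the first gene listed for it in the deposited table had the biotype lincRNA, antisense or processed transcript and no tRNA gene was listed for it; the biotypes lncRNA and sense intronic, which the rule also names, had 0 sites. No measured value was used. The rule found 5256 of the 118890 sites in the table, in 315 genes: 3232 sites in 167 lincRNA genes, 1244 in 85 antisense genes and 780 in 63 processed transcript genes. For the test, a site needed a coverage of at least 50 reads in each library and a mean cleavage ratio of at least 5%, which 650 lncRNA sites in 119 genes passed, of 13240 in the table. The filter left out 1509 sites for coverage and 3097 for the ratio alone. Just inside it lay chr13:81065868 in 9330111N05Rik, with 4.19% in cKO and 5.61% in WT, and just outside chr16:33060101 in Gm17106, with 5.86% in cKO and 4.35% in WT.

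The study compared Mettl8 conditional knockout (cKO) neural progenitor cells with wild-type (WT) ones. All came from the cerebral cortex at embryonic day 17.5 and were grown on Matrigel in medium with B27, N2 and 20 ng/mL each of bFGF and EGF. Hydrazine-aniline cleavage sequencing (HAC-seq), from 8000 ng of total RNA, was done on 3 cKO and 4 WT libraries. RNA-seq by the SMART-seq2 method, from 300 ng of total RNA, was done on 6 cKO and 6 WT libraries. The sources used here name neither the Cre driver nor the deleted exons. They also do not say whether the replicates of a genotype came from different animals or cultures, and every p-value therefore reflects only how far these libraries scatter.

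METTL8 is a methyltransferase that makes 3-methylcytidine (m3C) in the anticodon loop of mitochondrial tRNAs. The HAC-seq chemistry opens the ring of m3C with hydrazine and breaks the chain at that base with aniline. Reads then begin 1 base downstream, and the cleavage ratio is the share of reads at a site that begin there. Many lncRNA genes are hosts: their introns are cut and trimmed into small nucleolar RNAs (snoRNAs), which guide the modification of other RNAs, or into microRNAs (miRNAs), which Drosha and Dicer cut out of hairpins. Such RNAs have natural ends, and a read that starts at one is counted like a read that starts at a cut. No library without hydrazine was analysed here, so a read start at an RNA end and one at an m3C cannot be told apart.

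Sequences at RefSeq start sites of 4 lncRNA genes show what lies around tested sites. In Malat1 and Bc1 this is the start of the gene, and in Gas5 and Gm15564 a start site inside the gene. Each run has 60 bases, from 10 bases before a RefSeq start site onward (RefSeq, GRCm38.p6), and the capitals mark the C of each tested site. Malat1, a nuclear RNA kept in splicing speckles, is shown at chr19:5802623-5802682 on the minus strand. Gas5, a snoRNA host, is shown at chr1:161035156-161035215 on the plus strand. Bc1, a dendritic RNA of rodents whose 5′ domain descends from an alanine tRNA, is shown at chr7:144914460-144914519 on the plus strand. Gm15564, an antisense lncRNA gene, is shown at chr16:35981800-35981859 on the minus strand.
Malat1: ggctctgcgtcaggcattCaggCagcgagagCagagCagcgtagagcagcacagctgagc
Gas5: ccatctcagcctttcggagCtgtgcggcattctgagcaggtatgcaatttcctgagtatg
Bc1: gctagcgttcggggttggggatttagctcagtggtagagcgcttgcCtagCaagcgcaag
Gm15564: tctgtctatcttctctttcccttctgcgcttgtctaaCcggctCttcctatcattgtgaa
In all, 52 lncRNA sites fell in the 300-base promoter windows of RefSeq genes on the same strand, and the base was C at 52 of them. The same held at 939 of 939 sites of the whole table.

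The 4 Malat1 sites lay 9, 13, 22 and 27 bases into the transcript. The first of them had 15.3%, 16.8% and 9.56% cleavage in the cKO libraries and 9.44%, 11.4%, 5.03% and 9.68% in the WT libraries, at a coverage of at least 98 reads. The groups overlapped there, as cKO replicate 3 lay below WT replicate 2. The other 3 sites averaged 6.87% to 7.48% in cKO and 6.35% to 6.75% in WT. In Bc1 the marked bases lie 37 and 41 bases in, and the first is followed by T and then AGC, the anticodon letters of an alanine tRNA. It had 10.8%, 6.67% and 8.60% in cKO and 8.91%, 11.04%, 9.73% and 13.1% in WT, which overlap. The second had 5.21% ± 1.11 in cKO (SD, n = 3) and 5.35% ± 1.64 in WT (SD, n = 4). The Gas5 site, 10 bases in, had 9.90% ± 3.70 in cKO (SD, n = 3) and 7.70% ± 4.95 in WT (SD, n = 4). The Gm15564 sites differed widely, with 99.2% in cKO and 99.4% in WT at the first C and 17.8% and 18.4% at the second. Whether the reads there come from Gm15564 or from another gene with the same sequence was not tested.

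Hairpins of miRNAs held 8 further sites in 7 hairpins. Those where the highest share of reads began at the site are shown, and there the reads began at an end of a mature miRNA. The sequences are RefSeq hairpins of GRCm38.p6, with the mature miRNAs in capitals. Mir9-3, the hairpin of the neural miR-9, lies at chr7:79505264-79505353 on the plus strand in the host Mir9-3hg. Mir181b-1 lies at chr1:137966639-137966718 on the plus strand in Gm4258. Mirlet7a-1 and Mirlet7f-1, hairpins of the let-7 family that rises as progenitors mature, lie at chr13:48538179-48538272 and chr13:48537829-48537917 on the minus strand in 6720427I07Rik.
Mir9-3: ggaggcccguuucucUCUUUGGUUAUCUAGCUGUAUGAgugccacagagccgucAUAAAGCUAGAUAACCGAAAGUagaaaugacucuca
Mir181b-1: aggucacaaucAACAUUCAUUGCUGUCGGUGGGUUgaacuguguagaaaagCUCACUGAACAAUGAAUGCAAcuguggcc
Mirlet7a-1: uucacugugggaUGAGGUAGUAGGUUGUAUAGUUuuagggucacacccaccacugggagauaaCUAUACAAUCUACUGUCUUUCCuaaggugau
Mirlet7f-1: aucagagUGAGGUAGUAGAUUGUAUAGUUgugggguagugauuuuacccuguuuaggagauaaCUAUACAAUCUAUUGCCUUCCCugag
In Mir9-3 the C is base 15 of the hairpin and the reads began at base 16, the first base of miR-9-5p. All 86 reads of the cKO libraries and 97 of 98 reads of the WT libraries began there, with exact 95% intervals of 95.8% to 100% and 94.4% to 99.97%, which cover counting error only. In Mir181b-1 the reads began at the first base of miR-181b-5p, 26 of 37 in cKO and 40 of 53 in WT. In Mirlet7a-1 they began at the last base of let-7a-1-3p, 18 of 18 in cKO and 20 of 27 in WT. In Mirlet7f-1 they began at the last base of let-7f-1-3p, 12 of 17 in cKO and 18 of 27 in WT. In Mirlet7c-1, in Mir99ahg, they began at the base after let-7c-1-3p, 5 of 22 in cKO and 11 of 36 in WT. In Mir3069, in Snhg10, they began at the base after miR-3069-5p, 11 of 105 in cKO and 14 of 156 in WT. These 6 sites had under 50 reads in a library and were not tested. Mir6516, in Snhg20, held the other 2 sites, of which 1 was tested, with 8.24% ± 2.96 in cKO (SD, n = 3) and 5.55% ± 3.52 in WT (SD, n = 4), and neither read start was at an end of a mature miRNA.

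The libraries were checked at the known METTL8 target first. Cleavage at the m3C site of mitochondrial tRNA-Thr was 1.70% to 2.51% in the cKO libraries and 93.7% to 94.7% in the WT libraries, as the HAC-seq labels say. In RNA-seq, Mettl8 itself had 59.3 to 80.9 CPM (counts scaled to a common library size) in the libraries labelled cKO and 35.9 to 58.6 in those labelled WT. This count covers the gene as a whole and does not check a deletion of part of it, so RNA-seq directions rest on the labels alone. Summed markers of neural progenitors lay at 11801 to 16206 CPM in libraries labelled cKO and 13474 to 16980 in WT, while the microglial markers Cx3cr1 and Aif1 and the endothelial markers Cldn5 and Cdh5 stayed under 0.5 CPM in every library. Summed markers were 91.1 to 153 CPM in cKO and 88.3 to 214 in WT for neurons, 333 to 1269 and 563 to 1166 for astrocytes, 350.0 to 596 and 381 to 604 for the oligodendrocyte lineage, 2.98 to 7.76 and 1.66 to 6.67 for microglia, and 0.778 to 1.68 and 0.513 to 2.22 for endothelium. Median coverage at the tested lncRNA sites was 132.5 to 186.5 reads in the cKO libraries and 169 to 231.5 in the WT libraries. In HAC-seq, cKO replicate 3 stood apart from the other libraries in the coverage of 4 lncRNA genes described further on.

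No difference in cleavage between cKO and WT was called in lncRNA genes. No lncRNA site passed an adjusted p under 0.05 (0 of 650) in the quasi-binomial fit with limma's squeezed dispersions, and the smallest adjusted p was 0.468. The table held 1 called site among 13240 (0.00755%), the one of mitochondrial tRNA-Thr. At an unadjusted p under 0.05, 48 lncRNA sites were higher and 15 lower in cKO, where the whole table had 6.59% higher and 2.08% lower. Without cKO replicate 2 the fit called 2 lncRNA sites, both higher in cKO, and 30 sites of the whole table (0.227%). With dispersions squeezed to a trend, a setting chosen after seeing the data, it called 1 lncRNA site, lower in cKO, and 29 sites of the whole table (0.219%). On simulated data the fit recovered 69% of sites changed by an odds ratio of 0.05, 36% at 0.25 and 8% at 0.5, with 10, 6 and 1 false calls. The simulation only lowered cleavage in cKO. Its scatter between libraries was a fixed setting, not estimated from these libraries, so recovery in the real data may differ.

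Averaged over the 650 tested lncRNA sites, cleavage was 12.2%, 11.1% and 11.6% in the cKO libraries and 10.7%, 10.98%, 11.2% and 11.2% in the WT libraries. The groups overlapped, since cKO replicate 2 lay below WT replicates 3 and 4. At an unadjusted p under 0.05, limma on arcsine square root values had 42 lncRNA sites higher and 7 lower, where the whole table had 5.97% and 1.9%. The authors' deposited p-values gave 18 and 8, where the whole table had 2.82% and 1.22%, and 0 lncRNA sites were called by either. The means were 11.6% ± 0.547 in cKO (SD, n = 3) and 11.01% ± 0.246 in WT (SD, n = 4), a difference of 0.597 percentage points. Over all 13240 tested sites they were 10.1% ± 0.702 in cKO and 9.48% ± 0.284 in WT. The median lncRNA site was 0.439 points higher in cKO, with 392 of 650 sites higher (60.3%). The median site of the whole table was 0.570 points higher, with 61.4% of sites higher. Without cKO replicate 1 the difference in lncRNA means was 0.313 points.

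A small group of lncRNA sites had high cleavage ratios, in cKO as in WT. The ratio counts every read that begins there, and cuts and natural RNA ends were not told apart. A mean ratio of at least 50% was found at 15 of 650 tested lncRNA sites (2.31%) and at 206 of 13240 in the table (1.56%), and 14 of the 15 exceeded 80%. Rmrp, the RNA subunit of the RNase MRP enzyme that processes ribosomal RNA, had 99.3%, 99.4% and 99.3% in cKO and 99.1%, 99.2%, 99.3% and 99.3% in WT at chr4:43493060 (minus strand). The reads there, 4592 to 6848 per library, began at the first base of the RefSeq Rmrp gene (43492785 to 43493059). The C itself lies 1 base outside that gene. The difference of 0.114 points had an adjusted p of 0.765 in the quasi-binomial fit. The plot of sites with a mean ratio of at least 50% gives every library at these sites, among which Zfas1 had the widest spread.

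**Figure D1:**
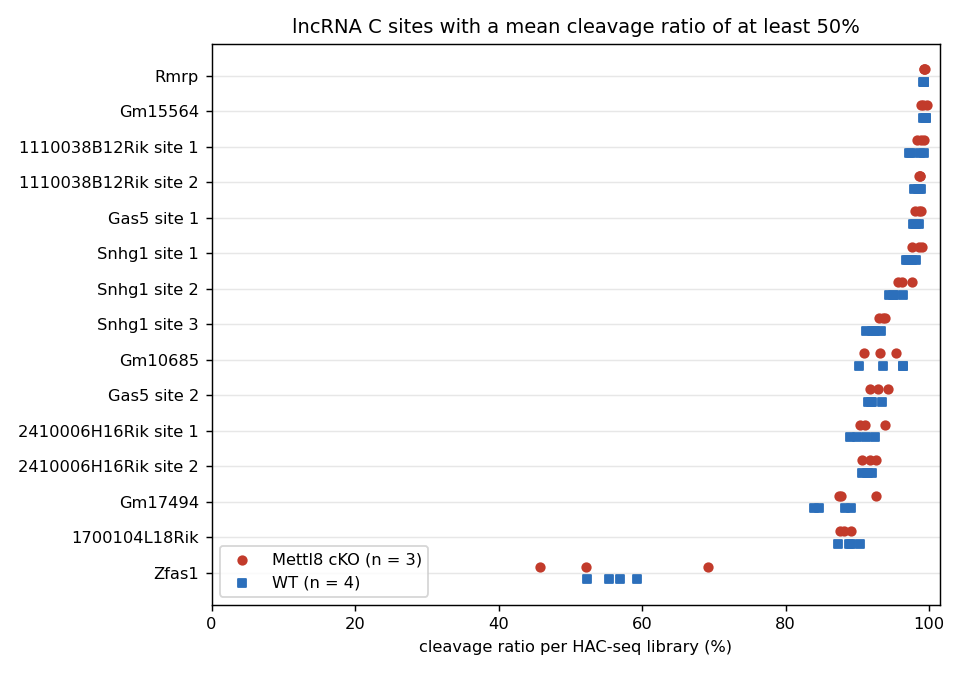
Cleavage ratio (%) in each HAC-seq library at the 15 tested lncRNA C sites with a mean ratio of at least 50%, cKO libraries as circles above WT libraries as squares. Except at Zfas1, each library lies above 80%, and in cKO replicates Zfas1 spreads from 45.8% to 69.2%.

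Of these 15 sites, 3 lay in Snhg1, 2 in Gas5 and 1 in Zfas1, which are snoRNA hosts on the list used here. In Snhg1 the site chr19:8725594 had 97.7%, 99.0% and 98.6% in cKO and 96.8%, 97.1%, 98.2% and 97.7% in WT, and chr19:8724531 had 96.5% ± 1.01 in cKO (SD, n = 3) and 95.2% ± 0.857 in WT (SD, n = 4). At the third, chr19:8723994, the means were 93.5% in cKO and 92.2% in WT. The reads began 1, 0 and 2 bases from the 5′ end of a RefSeq snoRNA at these 3 sites. In Gas5, chr1:161035399 had 98.5% ± 0.427 in cKO (SD, n = 3) and 98.1% ± 0.372 in WT (SD, n = 4), and chr1:161037358 had 93.0% in cKO and 92.2% in WT. In Zfas1, chr2:167065003 had 69.2%, 45.8% and 52.1% in cKO and 52.3%, 59.4%, 56.9% and 55.4% in WT, so the cKO libraries spread on both sides of WT. Coverage there was lowest in cKO replicate 1, with 104 reads and an exact 95% interval of 59.4% to 77.9%.

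The other 9 sites mostly lay beside small RNAs too. In 1110038B12Rik, chr17:34952076, where the reads began on the first base of a snoRNA, had 98.8% in cKO and 98.2% in WT, and chr17:34952311 had 98.7% and 98.4%. In 2410006H16Rik the reads began 10 bases before Snord49a and 12 before Snord49b, with 91.7% in cKO and 91.4% in WT at chr11:62603449 and 91.8% and 90.6% at chr11:62603073. In Gm10685 the site lay on the strand opposite the lncRNA, and its reads began on the first base of Rnu1b6, a gene of the spliceosomal U1 RNA. It had 95.3%, 93.2% and 91.0% in cKO and 93.6%, 96.4%, 90.3% and 96.4% in WT, from 59 to 171 reads a library. In Gm17494, chr3:122293037 had 89.3% ± 2.89 in cKO (SD, n = 3) and 86.5% ± 2.56 in WT (SD, n = 4), and lay 5 bases outside the RefSeq arginine tRNA gene n-TRtct2. In 1700104L18Rik, chr12:54239270 had 88.3% in cKO and 88.9% in WT, within Gm22220, a spliceosomal RNA gene in the deposited table and a pseudogene in RefSeq. Rmrp and Gm15564, given before, complete the set.

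High cleavage ratios clustered at the 5′ ends of small RNAs. A RefSeq small RNA lay within 20 bases of 589 lncRNA sites on their strand, and 554 of these had a coverage of at least 50 reads in each library. The reads began within 3 bases of the 5′ end at 38 of the 554 sites, and 6 of those 38 reached 50% and 9 reached 20%. From 4 to 12 bases inside the small RNA, 2 of 66 sites reached 50% and 7 reached 20%. Beyond 12 bases inside, 0 of 429 reached 50% and 4 reached 20%. More than 3 bases upstream of the end, 2 of 21 reached 50%. The same positions were high in both genotypes.

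**Figure D2:**
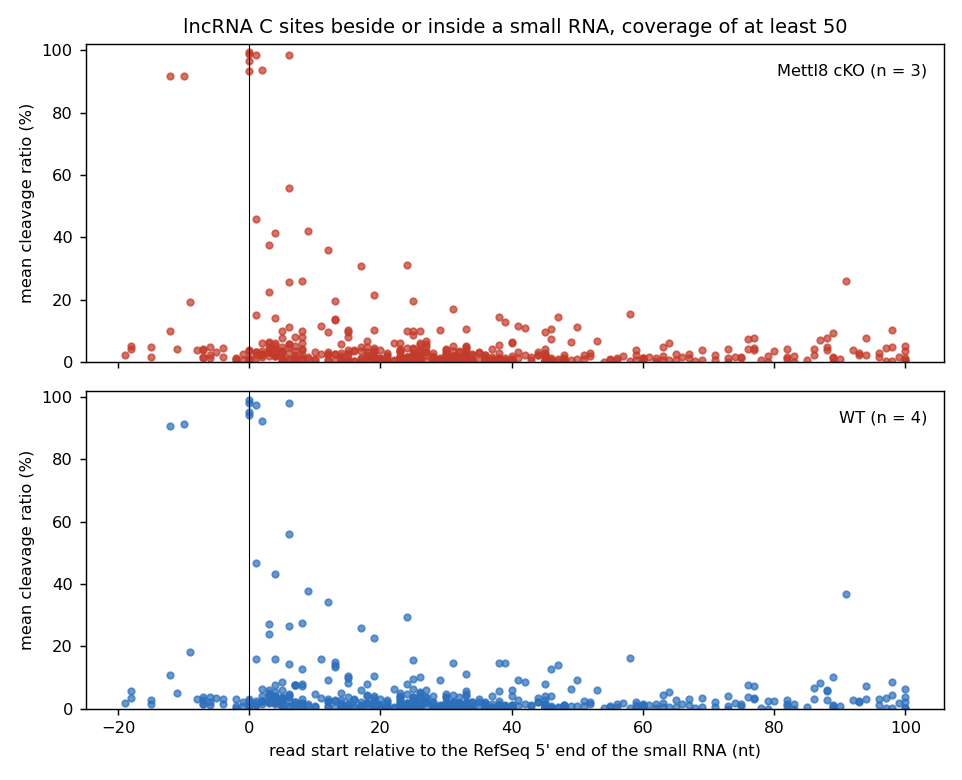
Mean cleavage ratio (%) in cKO libraries (upper panel) and WT libraries (lower panel) against the distance in nucleotides from the read start to the RefSeq 5′ end of the nearest small RNA (0 is its first base), for lncRNA sites with a coverage of at least 50. The sites above 80% lie between 12 bases before and 6 bases after the 5′ end in both panels, and 64 of the 554 sites lie beyond the plotted range.

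Among the 20 snoRNA hosts that were listed for this report, 15 held 404 sites, of which 70 were tested, and 0 were called. At an unadjusted p under 0.05, 2 of the 70 were higher and 1 was lower in cKO, and the median difference was 0.255 points. The largest difference among the named ones was in Snhg1 at chr19:8724870, where reads began 3 bases into a RefSeq snoRNA. It had 38.1%, 39.7% and 34.9% in cKO and 29.2%, 29.7%, 27.1% and 23.1% in WT. Every cKO library lay above every WT library, but the counts were 97 to 209 reads a library, and the difference of 10.3 points had an adjusted p of 0.513 in the quasi-binomial fit. In Gas5 the most covered site, chr1:161036682, had 45.8% ± 0.760 in cKO (SD, n = 3) and 46.7% ± 1.00 in WT (SD, n = 4) from 3449 to 7990 reads a library, and its reads began 1 base into a snoRNA.

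The most covered tested sites of the other snoRNA hosts gave differences in both directions, none of which passed the test. In Snhg1, chr19:8724251 had 15.1% in cKO and 15.95% in WT. In Snhg5, chr9:88521602, which lies 2 bases outside a RefSeq snoRNA, had 25.3% ± 2.90 in cKO (SD, n = 3) and 24.3% ± 3.92 in WT (SD, n = 4). Dancr had 11.1% ± 3.03 in cKO (SD, n = 3) and 14.5% ± 3.85 in WT (SD, n = 4), Snhg15 had 11.2% ± 3.20 and 9.26% ± 1.18, and Snhg16 had 10.05% ± 5.95 and 12.7% ± 6.50. The sites of Zfas1, Snhg4, Snhg12, Snhg8, Snhg6, Snhg10, Snhg17 and Epb41l4aos averaged between 5.35% and 7.56% in cKO and between 5.06% and 7.34% in WT.

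Average cleavage was highest where a small RNA lay on the strand of the site. Of the 5256 sites, 3263 lay on the strand of the lncRNA and 1993 on the opposite one, so that many belong to another transcript. Each site was put in a single class by the genes on its own strand, in the order small RNA, pseudogene, protein-coding gene. This gave 649 small RNA sites, 1349 pseudogene sites and 1073 protein-coding sites. The other 2185 had a lncRNA and none of these on their strand. The 111 tested small RNA sites averaged 18.9% ± 0.591 in cKO (SD, n = 3) and 18.7% ± 0.338 in WT (SD, n = 4). The 193 tested sites of the lncRNA class averaged 12.6% ± 0.578 in cKO and 12.2% ± 0.453 in WT. The 239 pseudogene sites averaged 9.01% ± 0.556 in cKO and 8.19% ± 0.115 in WT, and the 107 protein-coding ones 8.03% ± 0.471 in cKO and 7.26% ± 0.376 in WT. Sites at 50% or more numbered 10 in the small RNA class, 5 in the lncRNA class and 0 in the others. The classes follow the deposited gene entries. The 5 include Rmrp, the 2410006H16Rik site before Snord49b and the Gm17494 site beside a tRNA gene, so the lncRNA class was not free of small RNA neighbours. The median tested site of the lncRNA class had 7.601% in cKO and 7.154% in WT. That of the small RNA class had 9.839% in cKO and 9.235% in WT. Reads of repeated genes add to the overlap between lncRNA sites and other genes. Of the 5256 sites, 729 had numbers identical in all 7 libraries to those of another site. Of these 729 sites, 507 shared the numbers with a site outside the lncRNA genes.

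**Figure D3:**
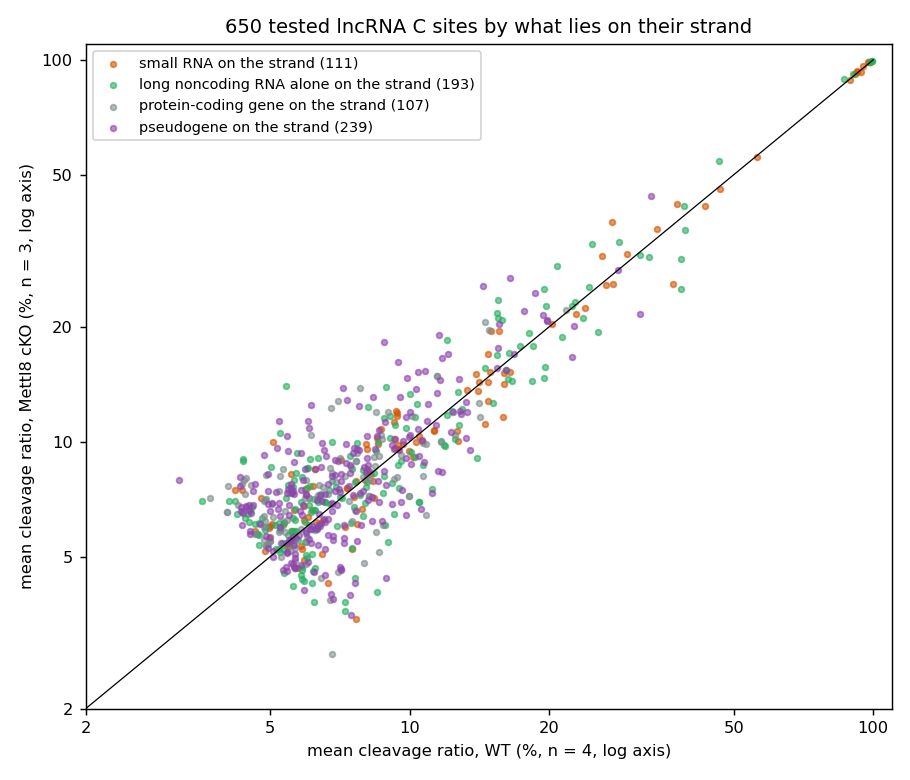
Mean cleavage ratio (%) in cKO (vertical axis, n = 3) against WT (horizontal axis, n = 4) for the 650 tested lncRNA sites on log axes, coloured by what lies on the strand of the site; the line marks equal ratios. Points scatter about the line, and those above 80% are small RNA sites or lncRNA sites.

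Malat1 held more sites than any other lncRNA gene, 851 of the 5256 (16.2%), spread from base 1 to base 6586 of its RefSeq transcript (chr19:5795690-5802672, minus strand). The sites were covered deeply, with at least 50 reads in each library at 841 of them, but were cleaved little. Their median ratio was 1.83%, 1.67% and 1.94% in the cKO libraries and 1.67%, 1.68%, 1.74% and 1.73% in the WT libraries. Only 63 reached the test, with 40 higher in cKO, with an unadjusted p under 0.05 at 5 higher and 1 lower sites, and with a smallest adjusted p of 0.569 in the quasi-binomial fit. The most covered tested site, chr19:5797077, had 6.45%, 5.36% and 5.25% in cKO and 4.65%, 4.01%, 5.06% and 5.24% in WT from 1504 to 3229 reads a library. The cKO values all lay above the WT values there, and the difference of 0.95 points had an adjusted p of 0.604 in the same fit.

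Along Malat1, 7 tested sites averaged 10% or more in at least 1 genotype. The highest in cKO, 4966 bases in, had 21.7% in cKO and 15.5% in WT, and the highest in WT, 656 bases in, had 18.8% in cKO and 21.3% in WT. At 4150 bases in the ratio was 14.4% in cKO and 18.4% in WT. These differences run in both directions and none passed the test, with adjusted p of 0.671, 0.956 and 0.757 in the quasi-binomial fit.

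**Figure D4:**
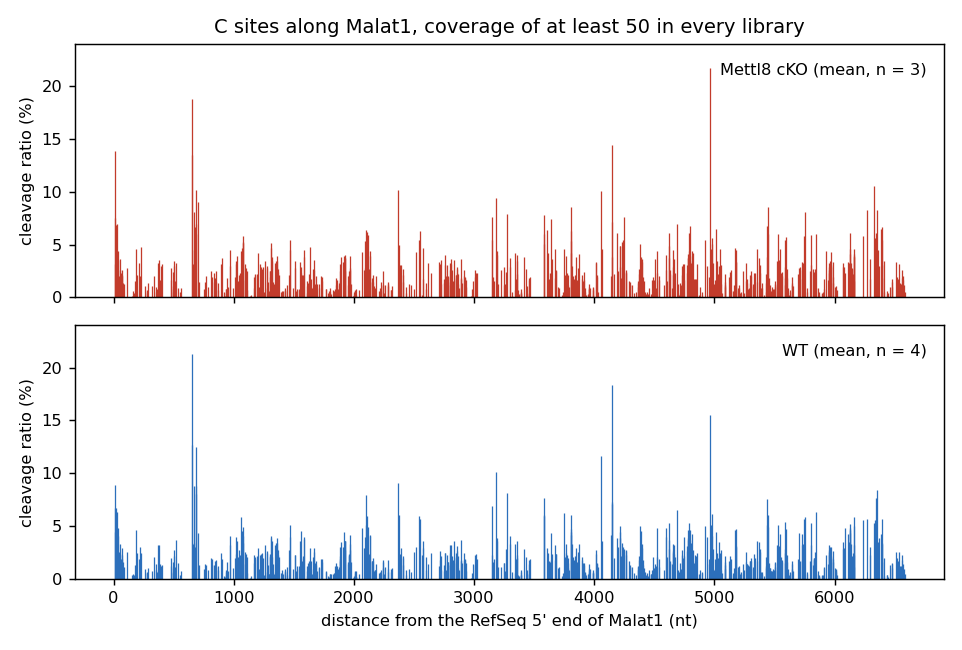
Mean cleavage ratio (%) of C sites along Malat1 in cKO (upper panel, n = 3) and WT (lower panel, n = 4) against the distance in nucleotides from its RefSeq 5′ end, for sites with a coverage of at least 50 in each library; each line is 1 site. Most sites lie under 5%, and the few taller lines stand at the same positions in both panels, up to 21.7% in cKO and 21.3% in WT.

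The lists of neural and regulatory lncRNAs gave fewer tested sites. Of 13 lncRNAs of neural development, 4 held 85 sites, 9 of them tested in 2 genes and 0 called. Sox2ot, whose gene encloses the stem cell gene Sox2, had 14.9%, 3.59% and 4.59% in cKO and 6.17%, 5.44%, 2.11% and 2.54% in WT at chr3:34651549 in Sox2 itself, so cKO replicate 1 alone was high. C130071C03Rik, an lncRNA at the miR-9-2 locus, had 6.395% ± 2.15 in cKO (SD, n = 3) and 5.26% ± 1.98 in WT (SD, n = 4). Of 8 stress and growth regulators, 5 held 93 sites, with 5 tested in 2 genes and 0 called. One of them is Bc1, given before. 2900097C17Rik had 9.26%, 6.06% and 5.69% in cKO and 1.97%, 4.80%, 2.80% and 4.70% in WT from 54 to 152 reads a library, which do not overlap, with an adjusted p of 0.624 in the quasi-binomial fit. Of the nuclear architecture and X inactivation list Malat1 alone had sites in the set. The imprinted list had 2 sites, in Snhg14, and the miRNA host list 3, and none of those was tested.

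The sites with the smallest p sat in a handful of little-known genes. Higher in cKO was Gm43126, on the strand opposite the lncRNA, with 8.40%, 6.92% and 8.79% in cKO and 3.62%, 4.63%, 4.09% and 5.43% in WT at chr6:127125413. These values do not overlap, a protein-coding gene lies on the strand of the site, and the adjusted p was 0.473 in the quasi-binomial fit. Gm50202 had 22.8%, 16.2% and 19.6% in cKO and 14.8%, 16.2%, 15.9% and 15.6% in WT at chr19:18732765, inside the RefSeq spliceosomal RNA gene Gm23238 on the opposite strand, from 5493 to 9248 reads a library. The lowest cKO value lay just above the highest WT value. Among the settings tried, it passed the test only without cKO replicate 2, with a difference of 5.60 points and an adjusted p of 0.0466.

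Apart from Snhg1, given before, the other sites with small p fell in the 4 genes whose coverage stood apart in cKO replicate 3. At chr7:110059731 in 1600010M07Rik, cleavage was 33.7%, 34.2% and 7.44% in cKO and 25.2%, 41.2%, 48.5% and 38.8% in WT. Only cKO replicate 3 was low there, and its coverage was 1882 reads against 111 to 235 in the other libraries. In Gm19951, chr12:99645293 had 11.7%, 12.6% and 2.86% in cKO and 10.9%, 9.40%, 19.1% and 16.5% in WT, and chr12:99645094 had 9.54%, 3.75% and 13.4% in cKO and 3.48%, 3.97%, 5.51% and 4.54% in WT. The second was called without cKO replicate 2, with a difference of 7.11 points and an adjusted p of 0.0317 in the quasi-binomial fit. In Gm15564, chr16:35981789 had 4.91%, 5.68% and 2.20% in cKO and 4.36%, 6.08%, 7.14% and 7.11% in WT, and chr16:35981595 averaged 3.84% in cKO and 6.75% in WT. In 9330185C12Rik, chr1:113904151 averaged 33.3% in cKO and 28.2% in WT, and chr1:113904211 had 7.33%, 10.2% and 1.92% in cKO and 4.83%, 8.33%, 12.1% and 11.7% in WT. At each of these 7 sites cKO replicate 3 lay at an end of the cKO values, as 2 of any 3 values do. It did not always stand apart: at chr16:35981595 the cKO libraries had 2.48%, 6.85% and 2.20%. The part of this library's coverage in these differences was not tested.

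Coverage in HAC-seq gave a second readout of the same genes, taken at the deepest site of each gene. It was compared for 275 lncRNA genes of 310 with such a site, by edgeR's quasi-likelihood test. The deepest site can lie in a small RNA, a protein-coding gene or a pseudogene, or on the strand opposite the lncRNA. Its coverage may then not be that of the lncRNA. In Snhg1 it lay within a RefSeq snoRNA, in 1700104L18Rik within Gm22220, and in Mir9-3hg in the Mir9-3 hairpin. The part of reads from small RNAs or other overlapping genes in the coverage of the genes was not tested. No lncRNA gene was called (0 of 275), against 1 of 6415 genes in all (0.0156%). At an unadjusted p under 0.05, 33 lncRNA genes were higher and 11 lower in cKO, where the whole table had 4.85% higher and 5.86% lower. The median log2 fold change, cKO over WT, was 0.07 for the lncRNA genes and -0.01 for all genes. limma voom also called 0, and DESeq2 called 4 lncRNA genes, all higher in cKO: Gm19951, 1700104L18Rik, Gm20628 and Gm20634. Their log2 fold changes were 2.80, 0.47, 0.44 and 0.44 with adjusted p of 0.0476, 0.0362, 0.0496 and 0.0496; Gm20628 and Gm20634 carry nearly the same reads. In the whole table DESeq2 called 57 genes (0.889%). In bulk samples, fewer cells with an RNA and less RNA per cell cannot be told apart.

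The largest coverage differences came from 1 library. 1600010M07Rik had 32.3, 21.9 and 985 CPM in cKO and 15.9, 18.9, 21.5 and 13.3 CPM in WT. Gm19951 had 763, 406 and 6761 CPM in cKO and 346, 373, 509 and 318 CPM in WT. 9330185C12Rik had 456, 207 and 2896 CPM in cKO and 247, 229, 296 and 252 CPM in WT. Gm15564 had 345, 211 and 1907 CPM in cKO and 182, 206, 272 and 208 CPM in WT. In all 4 genes cKO replicate 3 was far above the rest, 30.5, 8.86, 6.35 and 5.53 times the next library, and cKO replicate 1 was the next. By edgeR's test on all libraries the log2 fold changes were 4.32, 2.77, 2.21 and 1.92 with adjusted p of 0.192, 0.192, 0.224 and 0.224. Without cKO replicate 3 they were 0.65, 0.60, 0.38 and 0.36. Without cKO replicate 2 these genes and Gm48099 passed edgeR's test, with log2 fold changes of 4.90, 3.31, 2.73, 2.40 and 1.60 and adjusted p of 0.0133 to 0.0191, among 54 genes called in the whole table (0.832%). The source of the many reads of cKO replicate 3 at the 4 genes was not tested.

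**Figure D5:**
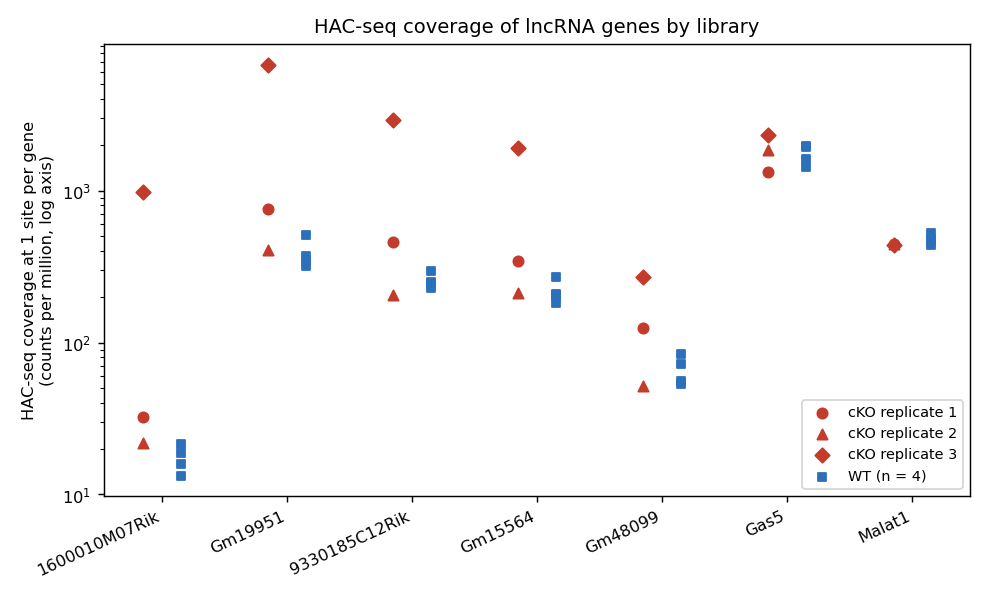
HAC-seq coverage (CPM, log axis) at 1 site per gene in each library, cKO replicates left of WT libraries for each gene. In the first 4 genes cKO replicate 3 lies above all other libraries, by 5.53 times or more, while in Malat1 the cKO libraries lie at 440 to 448 and the WT libraries at 440 to 529.

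Other lncRNAs gave smaller differences in HAC-seq coverage. Bc1 had 26.0, 19.1 and 19.2 CPM in cKO and 34.2, 28.3, 34.5 and 36.0 CPM in WT, which do not overlap. Its log2 fold change was -0.64 ± 0.15 (SE), and edgeR's test gave an adjusted p of 0.192. C130071C03Rik had 19.2, 15.3 and 14.03 CPM in cKO and 8.51, 10.7, 11.5 and 11.97 CPM in WT, also without overlap, with a log2 fold change of 0.60 ± 0.17 (SE) and an adjusted p of 0.230 by the same test. Gm16278 had 5.71 ± 0.851 CPM in cKO (SD, n = 3) and 8.98 ± 0.108 CPM in WT (SD, n = 4), and Gm36264 had 16.6 ± 5.14 CPM in cKO and 25.6 ± 2.52 CPM in WT. Gm16537 averaged 1.74 CPM in cKO and 3.99 in WT, but overlapped, with 1.18 to 2.59 in cKO and 1.74 to 5.62 in WT. Gm37422 averaged 3.75 in cKO and 5.23 in WT. Gm34225 had 4.10, 3.80 and 9.70 CPM in cKO, highest in replicate 3, and 1.01 to 2.81 in WT. Among the listed snoRNA hosts 14 of 15 had a positive log2 fold change, with a median of 0.19, and 0 were called, where 59.3% of all lncRNA genes tested and 47.4% of all genes had a positive one. At its deepest site, within a snoRNA, Snhg1 had 467, 418 and 1058 CPM in cKO and 332, 387, 411 and 350 CPM in WT. There cKO replicate 3 was high in Snhg1. Its log2 fold change was 0.81 ± 0.26 (SE), and edgeR's test gave an adjusted p of 0.289. Gas5 had 1840 ± 510 CPM in cKO (SD, n = 3) and 1730 ± 255 CPM in WT (SD, n = 4). Snhg5 had 1035 and 886, and Zfas1 231 and 211.

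The same hosts were looked up in RNA-seq, where 114 of the 315 genes were found by symbol or by a RefSeq synonym that is not a protein-coding gene, and 62 passed the filter on low counts. Total counts were 11830839 to 15766429 in the libraries labelled cKO and 15096888 to 18863781 in those labelled WT. No lncRNA host was called by edgeR's quasi-likelihood test (0 of 62), and neither was any of the 13105 genes tested (0%). DESeq2 and limma voom also called 0 of the 62. At an unadjusted p under 0.05, 1 host was higher and 2 were lower in cKO, where the whole table had 2.86% higher and 3.28% lower. The median log2 fold change was -0.03 for the hosts and -0.000996 for all genes tested. On simulated data for this comparison the test recovered 63% of genes changed 1.5-fold and 81.5% of those changed 2-fold.

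Malat1 had 2285 to 3101 CPM in cKO, with a median of 2767, and 2073 to 4235 CPM in WT, with a median of 3109, and the groups overlapped. Its log2 fold change was -0.24 ± 0.12 (SE), and edgeR's test gave an adjusted p of 0.807. Without the filter on low counts Malat1 was called, with a log2 fold change of -0.24 and an adjusted p of 5.3e-04, among 65 genes called in the whole table (0.32%). Its log2 fold change was 0.01 within library set 1, the RNA-seq set of cKO replicates 1 and 2 and WT replicates 1 to 3. Gas5 had 413 ± 94.6 CPM in cKO and 397 ± 89.2 CPM in WT (SD, n = 6 each), Snhg5 had 78.4 ± 29.7 and 66.5 ± 25.3, Snhg1 had 30.0 ± 10.2 and 24.9 ± 6.47, and Zfas1 had 26.7 ± 5.37 and 23.6 ± 7.59. Of the 15 listed snoRNA hosts, 7 had a positive log2 fold change and the median was -0.01, where 41.9% of all hosts tested and 49.6% of all genes had a positive one.

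Of the miRNA hosts, Mir99ahg, the host of let-7c-1, had 13.6 ± 2.00 CPM in cKO and 15.996 ± 1.87 CPM in WT (SD, n = 6 each), with a log2 fold change of -0.26 ± 0.12 (SE); edgeR's test gave an adjusted p of 0.806. Mir9-3hg, the host of miR-9-3, had 32.7 ± 6.26 CPM in cKO and 36.1 ± 4.74 CPM in WT. Of the neural list, Pantr1 had 289 ± 32.2 CPM in cKO and 297 ± 35.8 CPM in WT (SD, n = 6 each), Sox2ot had 47.8 ± 1.80 and 47.0 ± 3.29, C130071C03Rik had 16.4 ± 1.44 and 15.3 ± 1.06, and 2610307P16Rik had 2.99 ± 1.64 and 4.04 ± 3.54. Of the stress and growth list, 2900097C17Rik had 138 ± 13.5 CPM in cKO and 148 ± 17.3 CPM in WT, Pvt1 had 125 ± 29.3 and 110 ± 20.3, and Oip5os1 had 89.3 ± 7.58 and 89.4 ± 2.40. Other hosts, named because they ranked among the 5 smallest p in their direction, were 4933404O12Rik, with 41.4 CPM in cKO and 38.0 in WT, 9630014M24Rik, with 1.41 and 2.19, Gm17494, with 1.17 and 1.70, Gm19710, with 0.770 and 0.523, and Snhg16, with 14.2 and 11.9; the unadjusted p of Gm19710 and Snhg16 in edgeR's test were 0.254 and 0.315.

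Some sites had no cleaved read in cKO at all. No read began after the C in any cKO library at 20 of the 5256 lncRNA sites, and at 505 of the 118890 sites of the table. The table keeps a site only if at least 2 reads began there in each WT library, so a site could be empty in cKO but not in WT. The deepest of the 20, chrX:170013881 in Erdr1, had 0 of 264 reads in the cKO libraries together, and a count of 0 there allows a share of up to 1.136%. This limit, like those below, is 3 reads divided by the pooled coverage. It covers counting error only, not scatter between libraries. The WT libraries had 20 read starts. The Y-linked copy in Gm47283, chrY:90788458, had the same counts, 0 of 264 reads in cKO and 20 read starts in WT. In Gm14820, chrX:8047259 had 0 of 218 reads in cKO, which allows up to 1.38%, and a mean of 2.83% in WT. In 2900097C17Rik, chr2:156389062 had 0 of 110 reads, which allows up to 2.73%, and a mean of 4.40% in WT. None of the 20 sites passed the filters for the test.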

How the data were processed

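STAR 2.5.2a, Trimmomatic 0.32 and bcl2fastq 2.17.1.14 are named in the submitters' processing notes. The HAC-seq build is GRCm38.p6 there, and the RNA-seq build GRCm38. The authors deposited a raw count per gene for RNA-seq. Their HAC-seq table, as deposited, has for each C site the signal of read starts, a count of reads covering it, the ratio of these as a fraction, and a p-value. Per the file headers, sites need more than 1 read start in each WT library. Repeated entries (16692 of 135582) were dropped, and 0 sample columns were left out. A quasi-binomial model was fitted to cleaved and uncleaved reads (limma 3.58.1 squeezeVar, dispersion of at least 1, two-sided F test). Coverage and RNA-seq counts were tested by edgeR 4.0.16 (filterByExpr, TMM, RNA-seq with library set as a term; R 4.3.3). P-values were adjusted by Benjamini-Hochberg over all features tested, and a call needed an adjusted p under 0.05. Alternatives used DESeq2 1.42.0, voom, other filters and left-out libraries.

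The lncRNA sites and the lists were chosen with earlier results of these data known. Named were the 10 tested sites with the highest cleavage, the 5 sites and genes with the smallest p in each direction, the most covered site of up to 20 list genes and up to 4 genes per list. Other sites at 50% or more, those called in an alternative and the miRNA and start-site examples were added after their values were seen. RefSeq's gene table gives no strand, so a RefSeq small RNA counted where the deposited table gives that gene the strand of the site, or, where it gives no strand for the gene, where the entry of the site lists a small RNA on its strand. Without strand in the RNA-seq counting, overlapping and antisense genes cannot be told apart. The library names give 2 RNA-seq sets, each with both genotypes.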

Additional observations from a re-analysis of the deposited data

Results flagged for a closer look

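In 112 groups of 4 or 6 libraries behind the named values, 2 held a value far from the others by Dixon's criterion, which chance gives in about 1 group in 20. At chr18:35557067 in Snhg4, WT replicate 2 had a cleavage of 6.59%, against 5.53% to 5.64% in the other WT libraries. At chr5:74093535 in Dancr, WT replicate 3 had 20.3%, against 12.2% to 13.3% in the other WT libraries. In groups of 3, such as the cKO libraries of HAC-seq, no value was checked this way.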

How the results depend on the processing

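For lncRNA sites called by cleavage, 0 with all libraries, leaving out 1 library gave 0 to 2 and the dispersion trend, added after seeing the data, gave 1. The other settings gave 0. The difference in mean cleavage was 0.1998 to 0.858 points over all settings and 0.313 to 0.858 with a library left out. For coverage, DESeq2 gave 4 calls and leaving out 1 library 0 to 5. For RNA-seq, no filter on low counts gave 1 and leaving out 1 library gave 0 each time. Of 1421 recomputations of 93 named values, 65 changed direction.

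Deviations of same-numbered RNA-seq libraries correlated at 0.37 to 0.62 in the 5 pairs within a library set and at -0.36 in the pair that crosses the sets. In HAC-seq they correlated at -0.0079, -0.018 and 0.035, so the numbers were not taken to pair samples. With the replicate block, calls were 0 for cleavage, 0 for coverage and 0 for RNA-seq. The block turned cleavage differences to -0.285 points at Snhg12, 0.451 at Bc1 and 0.511 at Snhg10, and RNA-seq log2 fold changes to 0.054 for Gas5 and -0.0045 for Oip5os1. Without the library set term Gas5 was 0.056 and Oip5os1 -0.00073. Oip5os1 was -0.0039 with voom and -0.0010 with counts divided by 2. Within library set 1, log2 fold changes were 0.32 for 2610307P16Rik, 0.015 for Malat1, -0.015 for Oip5os1, 0.0013 for Pantr1, -0.061 for Pvt1, -0.11 for Snhg1 and -0.10 for Snhg5.

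With 1 library left out, the cleavage difference in points ran from -0.412 to 0.040 at Gm15564 chr16:35981822, -2.28 to 0.123 at Gm10685, -0.198 to 0.758 at 2410006H16Rik chr11:62603449 and -7.06 to 4.68 at Zfas1 chr2:167065003. It ran from -0.293 to 1.54 at Zfas1 chr2:167065319, -1.30 to 0.262 at Snhg4, -0.285 to 0.640 at Snhg12, -0.860 to 0.891 at Snhg8 and -2.75 to 1.24 at Snhg6. It ran from -0.835 to 0.456 at Bc1, -0.899 to 0.511 at Snhg10, -0.0358 to 2.89 at Snhg5, -0.458 to 3.61 at Snhg17 and -5.28 to 0.570 at Snhg16. The RNA-seq log2 fold change ran from -0.12 to 0.00055 for 2900097C17Rik, -0.039 to 0.047 for Oip5os1, -0.037 to 0.029 for Pantr1, -0.013 to 0.12 for Snhg5, -0.013 to 0.038 for Sox2ot and -0.021 to 0.18 for Zfas1. The coverage log2 fold change ran from -0.12 to 0.28 for Gas5, -0.077 to 0.16 for Pvt1 and -0.23 to 0.0075 for Snhg14. The cause of these changes was not tested.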
